A study of Mus musculus with 7 samples.

Results

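Transcript levels were compared between 2 lines of induced neural stem cells, pBKSM and pOKSM, which were made from mouse fibroblasts with polycistronic vectors that differ by label in 1 reprogramming factor. The comparison used the difference of log2(FPKM + 1), pBKSM minus pOKSM, where FPKM is the number of fragments from a gene, corrected for its transcript length and for the size of the library. A difference of 1 is 2-fold on this scale, which understates differences of low genes. Genes with at least 5 FPKM in the higher of the 2 libraries were kept, which left 9282 of 24354 gene symbols. Just inside this limit were Gstk1 (5.01 FPKM in pBKSM, 1.47 in pOKSM) and Cdan1 (5.01 and 4.26), and just outside it were Kdm1b (4.46 and 4.996) and Tbc1d24 (4.999 and 3.58). A gene under 5 FPKM in 1 library was kept only through the other. Counts and medians that include such genes, in either direction, thus rest partly on the filter. Each side was 1 library, so the differences are given without a test.

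The series measured RNA in 7 mouse libraries, of which the other 5 are used here only to place the difference. Both polycistronic lines, the fibroblast library (MEF) and the clones numbered 1 and 3 of the mcBKSM line carried Oct4-CreER with a loxSTOPlox-EYFP allele at Rosa26, on the strain C57BL/6-Pou5f1 x 129X1/SvJ, so that a cell in which Oct4 turns on the inducible Cre becomes yellow fluorescent. Their fibroblasts came from embryos of day 13.5 without head, inner organs and spinal cord. To make the polycistronic and mcBKSM lines, fibroblasts were infected with lentivirus or retrovirus and kept in neural stem cell medium. The DTA line carried loxSTOPlox-DTA, a toxin that kills such cells, in place of EYFP on an unknown strain, and its vector is not given, while control neural stem cells (cNSC) came from the cerebral cortex of OG2/ROSA26 embryos of day 13.5. Each library was made from RNA pooled over 2 to 3 biological replicates, so the spread within a line is not seen, and the labels do not say whether a polycistronic line is 1 clone.

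A polycistronic vector makes several proteins from 1 transcript, and a monocistronic vector carries 1 factor each. The p of a label is taken for the former and mc for the latter. Klf4, Sox2 and Myc are the letters K, S and M, which are joined by Oct4 (gene Pou5f1) where the label has O and by Brn4 (gene Pou3f4) where it has B. Oct4 is the POU-domain factor of pluripotent cells and Brn4 a POU-domain factor of the developing nervous system. Both bind octamer motifs in DNA and can act beside Sox2, which is itself a factor of neural progenitors. Neural stem cells divide in culture and can give rise to neurons, astrocytes and oligodendrocytes, each with known marker genes.

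Depth, which the files do not give, was estimated from low values, in units of 1e6 fragments, at 11.6 for pBKSM, 12.6 for pOKSM and 13.5 to 17.1 for the others. On a transcript of 2 kb, 3 fragments correspond to 0.141 FPKM in pBKSM and 0.130 in pOKSM, and values near or under this are at the floor. At 5 FPKM such a transcript would have 106 fragments in pBKSM and 115 in pOKSM, a counting SD of 9.7% and 9.33%, which covers counting error only. The number of genes with at least 1 FPKM was 11124 in pBKSM and 11358 in pOKSM.

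The labels were set against the data before the genes that differ were described. Pou5f1 was listed at 0 in pBKSM and was 0.202 FPKM in pOKSM, near the floor, so the O of the pOKSM label is not checked by these values. Pou3f4, the gene of the B factor, was listed at 0 in both mcBKSM clones, so the B of their label is not checked either. Here mcBKSM is used only as a name. The species of the vectors' coding sequences is not given in the sources used here, so it is not known whether vector reads would count toward the mouse genes. Nes, the intermediate filament gene of neural stem cells, was 275 and 189 FPKM in pBKSM and pOKSM, against 225 in cNSC and 0.103 in MEF. Pax6, a progenitor transcription factor gene, was 8.75 and 7.94 FPKM, against 9.597 in cNSC and 0 in MEF. Nanog was 0.189 and 0.131 FPKM, and no gene of the 21 of the pluripotency list passed 1.47 FPKM in pBKSM or 1.32 in pOKSM. Both lines thus had transcripts of neural stem cells and values of pluripotency genes under the filter. The Y-linked genes Ddx3y (11.4 and 12.5 FPKM) and Uty (2.79 and 2.39) were present in pBKSM and pOKSM, while all 4 Y-linked genes were listed at 0 in MEF and stood at or under 0.0730 FPKM in DTA. The strain label of cNSC names female mice, and Eif2s3y, also on the Y chromosome, was 48.2 FPKM there. The MEF library therefore differs from both lines in Y-linked transcripts, and its part in any difference from MEF was not tested.

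In all, 1074 of the 9282 kept genes were at least 2-fold apart between pBKSM and pOKSM (11.6%), 601 of them higher in pBKSM (6.47%) and 473 lower (5.1%). The order turned with the size of the difference. At 4-fold or more, 77 genes were higher in pBKSM (0.83%) and 207 were lower (2.23%), together 284 (3.06%). The large differences were thus mostly transcripts present in pOKSM and low in pBKSM. Between the 2 mcBKSM clones, the only libraries that share a label, 114 of 9024 genes were 2-fold apart (1.26%), 82 higher in clone 1 (0.909%) and 32 lower (0.355%), and of the 1074 genes 74 were also 2-fold apart between the clones. The gap between pBKSM and pOKSM was larger than the gap between the clones for 1047 of the 1074. These genes were picked for a large gap between pBKSM and pOKSM, so that count follows largely from the choice. The clones are also not replicates of either polycistronic line. The median difference over kept genes was 0.04, and 6725 genes (72.5%) lay within 1.5-fold. Just past 2-fold were Nova2 (8.64 and 3.81 FPKM in pBKSM and pOKSM), Dbndd2 (8.37 and 3.68) and Samd10 (3.89 and 8.78). Just short of it were Entpd5 (7.36 and 3.18), Fcho1 (6.73 and 2.87), Rad9a (8.17 and 17.3) and Cerk (5.31 and 11.6).

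**Figure D1:**
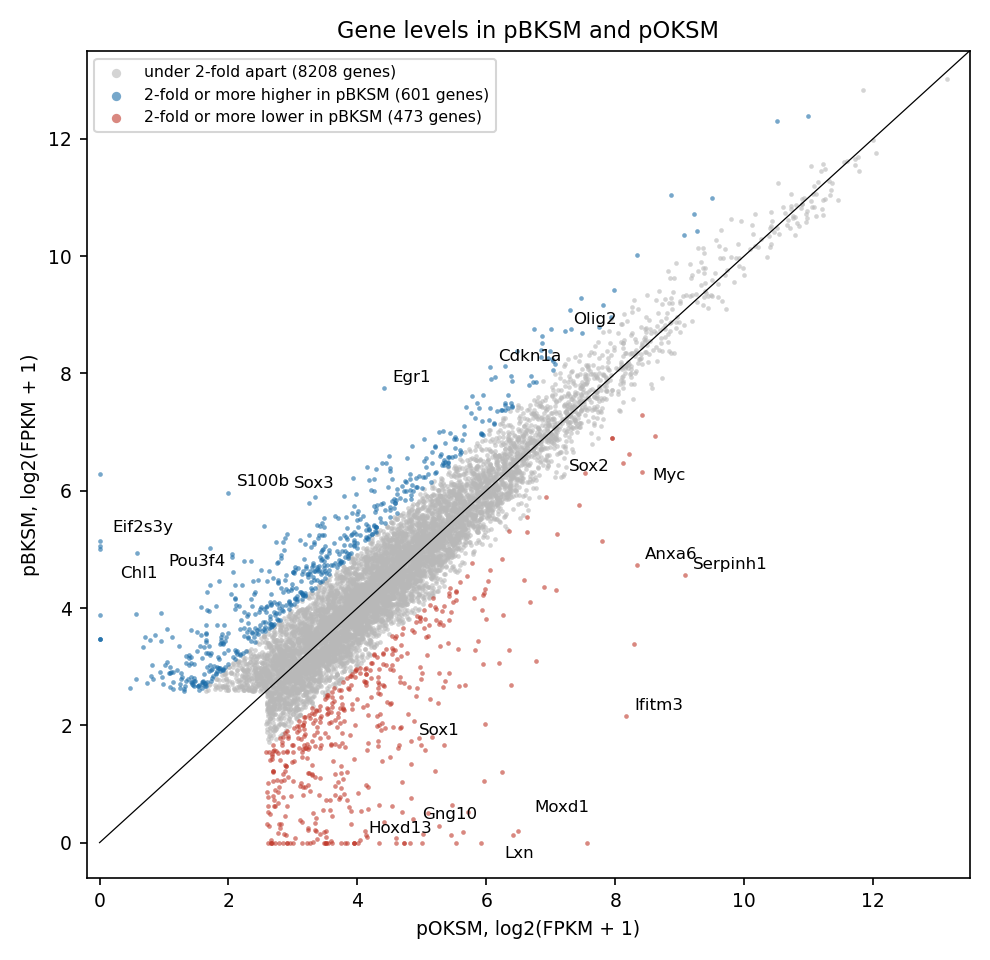
Each point is 1 of the 9282 kept genes, with its level in pOKSM on the x axis and in pBKSM on the y axis, both as log2(FPKM + 1); blue points are 2-fold or more higher in pBKSM (601) and red points lower (473), and the line marks equal levels. The red points reach farther from the line than the blue ones, with a row at 0 in pBKSM.

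The 4 factor genes that reached 5 FPKM went both ways. Pou3f4, the B factor (chromosome X, 110814379 to 110819108, positions from RefSeq, GRCm38.p6), was 19.99 FPKM in pBKSM and 2.26 in pOKSM, a difference of 2.69. It was 27.2 FPKM in cNSC, 24.1 in DTA and listed at 0 in MEF and both clones. Sox2 was 87.6 FPKM in pBKSM and 277 in pOKSM (-1.65), with 107 in cNSC, 106 in DTA, 342 and 389.8 in the clones and 0 in MEF. Myc, a growth and cell cycle factor, was 78.9 FPKM in pBKSM and 339 in pOKSM (-2.09), with 47.8 in MEF, 42.5 in cNSC, 50.1 in DTA, and 449.6 and 485 in the clones. For Sox2 and Myc, pOKSM thus stood with the clones, and pBKSM stood nearer to cNSC and DTA. Klf4 was 11.7 FPKM in pBKSM and 5.20 in pOKSM (1.03), inside the range of 4.08 in cNSC to 21.8 in MEF. Clones 1 and 3, at 16.6 and 5.91 FPKM, lay farther apart for Klf4 (1.35) than the 2 polycistronic lines. A level in FPKM per gene does not part vector transcripts from those of the cell's own gene. Of 15 POU factor genes 6 were kept, and Pou3f1, expressed in glia and neural cells, was also higher in pBKSM (15.4 and 3.50 FPKM), while Pou3f2, a neural POU factor, was lower (5.06 and 12.5).

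Because Oct4 and Brn4 both bind the octamer, the 250 bases before the start of each gene were searched for ATGCAAAT on both strands (as ATTTGCAT on the other). It was held by 7 of 455 genes higher in pBKSM with a promoter in the RefSeq table (1.54%), by 7 of 355 lower genes (1.97%), by 89 of 7214 kept genes (1.23%) and by 1.62% of all 27025 promoters in the table. The shares of both groups lie close to those of kept genes and of all promoters. A match is a description of the letters, not of binding. The 2 promoters shown belong to a collagen gene lower in pBKSM, Col3a1 (chr1:45311288-45311537, plus strand; 0.271 and 20.2 FPKM in pBKSM and pOKSM), and a p53 target gene higher in pBKSM, Eda2r (chrX:97377210-97377459, minus strand; 24.97 and 8.80 FPKM). Each is given 5′ to 3′ in the gene's direction from RefSeq (GRCm38.p6), and capitals mark the octamer, which begins at base -148 before the start of Col3a1 and at -81 before that of Eda2r.
Col3a1: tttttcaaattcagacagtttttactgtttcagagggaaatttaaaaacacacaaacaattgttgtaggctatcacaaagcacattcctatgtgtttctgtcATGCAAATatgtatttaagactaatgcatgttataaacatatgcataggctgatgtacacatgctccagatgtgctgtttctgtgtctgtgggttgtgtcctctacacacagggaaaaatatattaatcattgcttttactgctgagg
Eda2r: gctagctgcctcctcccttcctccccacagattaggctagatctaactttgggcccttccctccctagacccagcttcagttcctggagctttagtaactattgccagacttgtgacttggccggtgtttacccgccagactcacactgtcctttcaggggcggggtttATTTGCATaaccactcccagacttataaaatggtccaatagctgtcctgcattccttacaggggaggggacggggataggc

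Glial transcripts were higher in pBKSM. Of 21 astrocyte genes 14 were kept, 9 were 2-fold or more higher and 0 lower, with a median difference of 1.31, where 6.47% of all kept genes were higher and the median was 0.04. S100b, a calcium-binding protein gene of astrocytes (chromosome 10, 76253836 to 76261319), was 61.5 FPKM in pBKSM and 2.99 in pOKSM, and 0 in MEF, 2.21 in cNSC, 4.31 in DTA, and 0.0450 and 0 in the clones. The pBKSM library was thus the highest of the 7 for S100b, and cNSC lay with pOKSM. Gpr37l1, an astrocyte receptor gene, was 7.15 and 1.03 FPKM in pBKSM and pOKSM, and 30.9 in cNSC. Id3, an inhibitor of basic helix-loop-helix factors, was 620.2 and 175 FPKM, and Aldoc, the brain aldolase gene, was 431 and 127. In bulk RNA, fewer cells of a type and less RNA per cell cannot be told apart.

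Oligodendrocyte lineage genes showed a like balance, with 6 of 10 kept members higher and 1 lower (24 in the table, median 1.21). Over all kept genes 6.47% were higher and 5.1% lower. Of the 24 genes 9 also stand in other lists, so the counts of the lists overlap. Olig2, a factor of motor neuron and oligodendrocyte progenitors (chromosome 16, 91225550 to 91228677), was 423 FPKM in pBKSM and 148 in pOKSM, 247 in cNSC, 193 in DTA, 65.1 and 59.5 in the clones and 0 in MEF. Its neighbour Olig1 was 1038 and 323 FPKM in pBKSM and pOKSM, Sox8 was 87.8 and 19.9, and Cmtm5 was 54.3 and 8.54. The exception was Pdgfra, the growth factor receptor gene that marks oligodendrocyte precursors and also fibroblasts, at 1.06 FPKM in pBKSM, 6.995 in pOKSM, 0.553 in cNSC and 108 in MEF.

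Progenitor and neuronal genes did not follow the glial genes. Of 30 neural stem cell and radial glia genes 25 were kept, 4 were higher in pBKSM and 5 lower, with a median of -0.14. Of all kept genes 6.47% were higher and 5.1% lower. Sox1 and Sox3, close relatives of Sox2, went opposite ways. Sox1 was 2.31 FPKM in pBKSM, 27.4 in pOKSM, 8.93 in cNSC, 8.39 in DTA, 27.1 and 27.7 in the clones and 0 in MEF. Sox3 was 58.8 FPKM in pBKSM, 12.9 in pOKSM, 60.1 in cNSC, 41.8 in DTA, 0.177 and 0.0779 in the clones and 0 in MEF. Fabp7, a lipid carrier gene of radial glia, was 5051 FPKM in pBKSM and 1450.2 in pOKSM, and Prom1, a membrane protein gene of stem cells, was 2.06 and 9.65.

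Of 28 neuronal genes 7 were kept, 5 were lower in pBKSM and 0 higher, with a median of -1.35, where 5.1% of all kept genes were lower. Of the lower genes, Rbfox3 and Elavl4 passed the filter only through pOKSM. Rbfox3, a splicing factor gene of mature neurons, was 1.62 and 19.9 FPKM in pBKSM and pOKSM, 29.7 and 25.97 in the clones, 0.0692 in cNSC, 0.497 in DTA and 0 in MEF. The RNA-binding protein gene Elavl4 (1.48 and 12.4 FPKM), the synaptic vesicle gene Syt1 (9.55 and 41.5), the growth cone gene Gap43 (14.5 and 38.5) and the tubulin gene Tubb3 (6.05 and 14.6) were lower as well. Gap43 reached 100.2 FPKM in cNSC, so the low value of pBKSM is not that of cNSC for every neuronal gene. Sox11, a neuronal differentiation factor gene, was 17.6 FPKM in pBKSM and 60.4 in pOKSM. Markers of mesoderm, endoderm, vessels, microglia and blood stayed low. Of these, 0 of 20 mesoderm and endoderm genes and 0 of 15 endothelial and pericyte genes were kept. Cd68, at 2.43 and 7.43 FPKM, was the sole kept gene of 14 microglia and blood genes. Of 12 genes of the ependyma and choroid plexus list 2 were kept, Foxj1 (8.37 and 2.31 FPKM) and Otx2 (8.43 and 2.79). Both were higher in pBKSM, as were 6.47% of all kept genes. Of the neural crest list, Ets1 (21.0 and 29.1 FPKM) and Twist1 (13.4 and 13.6) lay within 2-fold. Twist1 was listed at 0 in cNSC and was 29.4 FPKM in MEF, and Ets1 was 12.1 in cNSC and 27.3 in MEF.

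**Figure D2:**
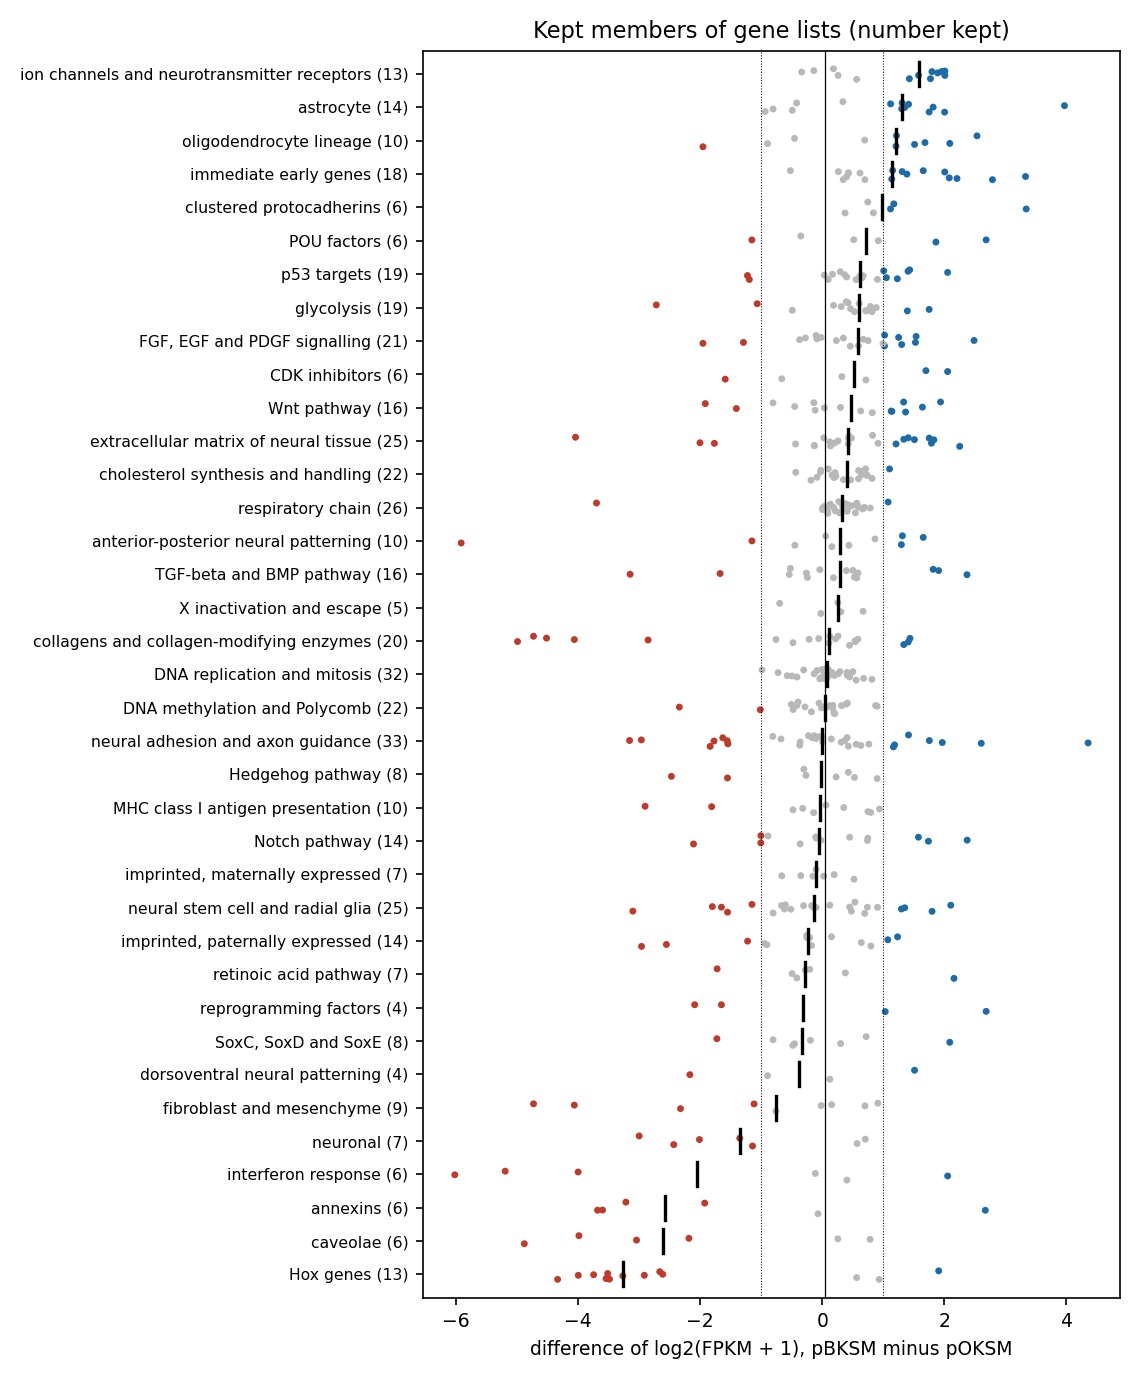
Each row is a gene list with at least 4 kept members (their number in brackets), each point 1 kept member at its difference of log2(FPKM + 1), pBKSM minus pOKSM, and the black bar the list's median; blue and red points lie at least 2-fold apart, dotted lines mark 2-fold and the solid line the median over all kept genes (0.04). Ion channel, astrocyte and oligodendrocyte lists lie to the right, and Hox, caveola, annexin and interferon lists to the left.

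Transcripts of the Hox clusters, which code for position along the body axis, were split by cluster. Of 39 Hox genes 13 were kept, 10 of them lower in pBKSM, all by 4-fold or more, and 1 higher, with a median of -3.27. The 10 lower genes passed the filter only through pOKSM, so their number and the median rest partly on the filter. Over all kept genes 5.1% were lower and 6.47% higher. In pBKSM 29 of the 39 were listed at 0, against 13 in pOKSM. All 10 HoxB genes were listed at 0 in pBKSM and in cNSC, while their summed level was 59.6 FPKM in pOKSM, 54.3 and 73.8 in the clones, 89.7 in DTA and 16.7 in MEF. HoxD genes summed to 0.0372 FPKM in pBKSM, all from Hoxd13, against 49.6 in pOKSM and 0 in cNSC. HoxA genes were present in both lines, with sums of 35.3 FPKM in pBKSM, 25.4 in pOKSM and 36.1 in cNSC, and HoxC genes were listed at 0 in both. All 10 lower genes belonged to the B and D clusters, 5 to each. Hoxb3 (chromosome 11, 96307101 to 96347930) was listed at 0 in pBKSM and was 19.2 FPKM in pOKSM, 17.1 and 22.7 in the clones, 5.73 in DTA and 0.642 in MEF. Hoxd13, the last gene of its cluster and a limb and tail factor, was 0.0372 and 15.5 FPKM in pBKSM and pOKSM, 11.5 and 18.6 in the clones and 0 in MEF. Hoxb7, Hoxb8 and Hoxb2 were 12.4, 10.6 and 10.4 FPKM in pOKSM. The sole Hox gene higher in pBKSM was Hoxa5, named after its value was seen, at 10.8 and 2.14 FPKM, with 14.1 in cNSC and 15.8 in MEF.

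Head patterning genes went both ways, with 3 of 10 kept anterior-posterior genes higher and 2 lower (6.47% and 5.1% of all kept genes). Otx2, a forebrain and midbrain factor, was 8.43 FPKM in pBKSM against 2.79 in pOKSM, and Egr2, a hindbrain factor and also an early response gene, was 10.7 against 2.73. Mab21l2, an eye and midbrain gene (chromosome 3, 86546050 to 86548283), reached 59.3 FPKM in pOKSM, 87.7 and 85.3 in the clones and 10.1 in cNSC, and was listed at 0 in the other libraries. Lhx2, a forebrain and eye factor, was 13.2 and 30.5 FPKM in pBKSM and pOKSM, and Dlx1, a ventral forebrain factor, was 2.11 and 13.0. Of the 4 kept dorsoventral genes, 1 was higher (Olig2) and 1 lower (Dlx1).

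Interferon-stimulated genes held some of the largest differences, although few passed the filter. Of 34 listed genes 6 were kept, 3 were lower in pBKSM, 1 was higher and 2 lay within 2-fold, with a median of -2.06. The 3 lower genes passed the filter only through pOKSM, so their number and the median rest partly on the filter. The shares over all kept genes were 5.1% lower and 6.47% higher. Ifitm3, a membrane protein gene that restricts virus entry (chromosome 7, 141009590 to 141010744), was 3.45 FPKM in pBKSM and 287 in pOKSM, 671 in MEF, 242 in cNSC, 459 in DTA, and 382 and 335 in the clones. The pBKSM library stood alone for this gene, with the lowest value of the 7 by a wide margin. Bst2, which tethers budding viruses, was 0.436 FPKM in pBKSM, 51.5 in pOKSM, 59.97 in MEF, 6.68 in cNSC, 1.18 in DTA, and 117 and 104 in the clones. Cxcl10, a chemokine gene, was 0.0929 FPKM in pBKSM, 16.5 in pOKSM, 49.8 in MEF, 21.0 in cNSC, 2.64 in DTA, and 45.3 and 57.1 in the clones. Bst2 and Cxcl10 were thus low in DTA as well. Ifi27 went the other way, at 34.9 and 7.65 FPKM in pBKSM and pOKSM. The Ifitm genes are near copies, so reads may have been split between them. Genes of MHC class I presentation showed 2 of 10 kept members lower and 0 higher. These were H2-K1 (7.30 and 61.0 FPKM) and H2-D1 (4.80 and 19.4), which belong to a family of near copies and are uncertain in the same way.

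The promoters of these 3 lower interferon genes are shown because they carry the largest differences of the list. The core of the interferon response element, taken as GAAA, any 2 bases and GAAA again, was searched on both strands in the same window. It was held by 2 of the 3 genes, Bst2 and Cxcl10, against 2.12% of kept genes, 2.54% of all genes lower in pBKSM, 1.98% of higher genes and 3.05% of all promoters in the table. Over the kept interferon genes, lower or not, it was held by 3 of the 4 with a promoter in the table. Bst2 (chr8:71537473-71537722, minus strand) holds overlapping matches that begin at bases -130 and -124, Cxcl10 (chr5:92348890-92349139, minus strand) holds a match at -213, and Ifitm3 (chr7:141010745-141010994, minus strand) holds none in this window. Capitals mark the matched letters in the RefSeq sequences (GRCm38.p6), given 5′ to 3′ in the gene's direction.
Bst2: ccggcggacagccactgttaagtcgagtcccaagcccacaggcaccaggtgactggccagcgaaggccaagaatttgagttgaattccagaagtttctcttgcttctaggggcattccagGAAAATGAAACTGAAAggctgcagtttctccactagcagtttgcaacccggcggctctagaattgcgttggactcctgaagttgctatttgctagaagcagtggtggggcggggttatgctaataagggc
Cxcl10: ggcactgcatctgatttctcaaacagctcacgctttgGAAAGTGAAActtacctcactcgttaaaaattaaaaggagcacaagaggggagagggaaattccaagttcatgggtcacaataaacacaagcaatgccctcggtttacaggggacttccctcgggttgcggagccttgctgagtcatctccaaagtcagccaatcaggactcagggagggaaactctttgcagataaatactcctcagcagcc
Ifitm3: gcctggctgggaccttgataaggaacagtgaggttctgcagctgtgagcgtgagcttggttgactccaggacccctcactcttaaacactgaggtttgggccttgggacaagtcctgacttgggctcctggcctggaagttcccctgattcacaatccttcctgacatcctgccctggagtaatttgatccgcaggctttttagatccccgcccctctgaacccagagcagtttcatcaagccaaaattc

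CpG content set both groups of genes apart from kept genes in like measure. The share of promoters with an observed-to-expected CpG ratio of at least 0.6 was 57.4% of genes higher in pBKSM, 60.3% of lower genes and 76.6% of kept genes. The E-box CACGTG, which Myc and its partner Max bind, stood in 5.71% of higher genes, 9.01% of lower genes and 9.02% of kept genes.

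Several fibroblast, caveola and annexin genes were lower in pBKSM, and collagen genes went both ways. Of 32 fibroblast genes 9 were kept, 4 lower in pBKSM and 0 higher, with a median of -0.76, where 5.1% of all kept genes were lower. The collagen genes Col5a2 (listed at 0 in pBKSM, 25.5 FPKM in pOKSM, 113 in MEF) and Col3a1 (0.271 in pBKSM, 20.2 in pOKSM, 219 in MEF), the fibrillin gene Fbn1 (2.95, 18.7 and 37.6) and the limb mesenchyme factor gene Prrx1 (2.00, 5.51 and 49.2) were the 4. All 4 passed the filter only through pOKSM, where their levels lay between those of pBKSM and MEF. The defining fibroblast collagen gene Col1a2 was listed at 0 in both lines and Col1a1 was 0.152 and 0.158 FPKM, and both were named after their values were seen. Summed over the 32 genes, the level was 189 FPKM in pBKSM, 202 in pOKSM, 705 in cNSC and 9432 in MEF. The part of remaining fibroblast transcripts in the differences was not tested.

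Among collagens and the enzymes that modify them, 5 of 20 kept members were lower, all by 4-fold or more, and 3 higher, with a median of 0.12 beside 0.04 over all kept genes. The 3 higher ones, named after their values were seen, were Col9a3 (35.1 and 13.3 FPKM in pBKSM and pOKSM), Col11a1 (15.7 and 5.30) and Col16a1 (12.3 and 3.93). Serpinh1, the collagen chaperone (chromosome 7, 99345375 to 99353239), was 22.6 FPKM in pBKSM and 538 in pOKSM, 554 in MEF, 102 in cNSC, 144 in DTA, and 761 and 637 in the clones. The prolyl isomerase gene Fkbp10 was 0.212 and 37.5 FPKM in pBKSM and pOKSM, and the prolyl hydroxylase subunit gene P4ha2 was 0.652 and 10.9. For Serpinh1, pOKSM was thus at the level of fibroblasts. Caveolae are small pits of the plasma membrane, and 4 of 6 kept genes of their list were lower, with 0 higher and a median of -2.61. Cav1, their main coat protein, was 1.75 FPKM in pBKSM, 21.7 in pOKSM, 180.2 in MEF, 73.8 in cNSC, 2.80 in DTA, and 32.2 and 34.6 in the clones. Cav2 was 0.735 and 6.88 FPKM in pBKSM and pOKSM, and the cavin genes Ptrf (1.33 and 35.9) and Prkcdbp (0.101 and 31.4), named here as in the table, were lower too. These 4 caveola genes passed the filter only through pOKSM. Annexins bind membranes in the presence of calcium, and 4 of 6 kept genes were lower and 1 higher. Anxa5 was 7.55 and 109 FPKM in pBKSM and pOKSM, Anxa6 was 25.6 and 322, and Anxa7 was 2.16 and 11.004. Anxa4 was listed at 0 in pBKSM and was 8.29 FPKM in pOKSM. The higher gene was Anxa1, at 9.93 and 0.715 FPKM, which was also uneven between the clones (8.01 and 0.181). Over all kept genes 5.1% were lower and 6.47% higher. The collagen, caveola and annexin lists were drawn up after these data were seen, so their counts only describe them.

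Matrix genes of neural tissue were more often higher, with 8 of 25 kept members higher in pBKSM and 3 lower, and a median of 0.43. Of all kept genes 6.47% were higher and 5.1% lower. The proteoglycan genes Cspg5 (79.8 and 21.8 FPKM in pBKSM and pOKSM) and Ncan (63.2 and 17.6) and the secreted guidance gene Spon1 (83.6 and 16.7) were higher. Lama4, a laminin chain gene of vessels and mesenchyme, was 0.0732 and 16.7 FPKM, and Thbs3, a thrombospondin gene, was 5.57 and 25.3. Adhesion and axon guidance genes were balanced, with 7 of 33 kept members higher and 7 lower. Chl1, a neural cell adhesion gene (chromosome 6, 103510584 to 103733038), was 29.5 FPKM in pBKSM, 0.492 in pOKSM, 122 in cNSC, 77.2 in DTA, 0.0618 and 0.0681 in the clones and 0 in MEF. Plxnb3, a semaphorin receptor gene, was 18.4 and 2.18 FPKM in pBKSM and pOKSM, and Ntn1, the guidance cue netrin-1, was 60.9 and 14.8. Slit1, a repellent cue gene, was 0.373 and 11.2 FPKM, and the ephrin receptor gene Epha3 was 0.678 and 12.1.

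Ion channel and neurotransmitter receptor genes gave the highest median of the 44 lists, 1.58, with 8 of 13 kept members higher in pBKSM and 0 lower of 48 in the table. They included the glutamate receptor genes Gria3 (26.1 and 5.74 FPKM in pBKSM and pOKSM) and Grm5 (26.4 and 5.81) and the potassium channel gene Kcnj16 (10.6 and 1.98). Kcnip3, a channel partner gene, was 40.6 and 10.2 FPKM. In the clones, Gria3 and Grm5 stood at or under 0.308 FPKM. Of 58 clustered protocadherin genes 6 were kept and 3 were higher in pBKSM, namely Pcdhgb7 (13.9 and 0.474 FPKM), Pcdhgc3 (294 and 129.7) and Pcdhb22 (6.89 and 2.63). Gamma protocadherin transcripts share their last exons, so reads between them are uncertain. Beside the channel and protocadherin counts, 6.47% of all kept genes were higher in pBKSM.

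Signalling genes differed within each pathway. Over all kept genes 6.47% were higher in pBKSM and 5.1% lower. In the Notch pathway, by which neighbouring progenitors hold each other undifferentiated, 3 of 14 kept genes were higher and 3 lower, with a median of -0.06. The ligand-like gene Dner was 33.7 FPKM in pBKSM, 5.69 in pOKSM and 84.5 in cNSC. The glycosyltransferase genes of Notch went opposite ways, with Lfng at 127 and 37.4 FPKM in pBKSM and pOKSM and Mfng at 2.64 and 6.31. For Mfng clones 1 and 3, at 22.6 and 7.10 FPKM, lay farther apart than the 2 polycistronic lines. Of the Hes and Hey genes, Hey1 was 21.2 FPKM in pBKSM, 94.9 in pOKSM, 23.4 in cNSC, 24.7 in DTA, 112 and 122 in the clones and 0.0902 in MEF. Hes6 was 160.1 and 52.999 FPKM in pBKSM and pOKSM. For Hey1, pBKSM thus had the level of cNSC and pOKSM that of the clones. In the Wnt pathway 6 of 16 kept genes were higher and 2 lower, with a median of 0.46. The ligand gene Wnt7a was 15.6 and 3.33 FPKM in pBKSM and pOKSM, and the inhibitor gene Sfrp2 was 5.69 and 24.2. The receptor genes Fzd10 (9.16 and 2.26 FPKM) and Fzd1 (12.1 and 33.7) differed in direction, and Nkd1, a feedback inhibitor, was 23.02 and 8.32.

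In the TGF-beta and BMP pathway 3 of 16 kept genes were higher and 2 lower, with a median of 0.29. The shares over all kept genes were again 6.47% higher and 5.1% lower. The activin subunit gene Inhbb was 10.3 and 1.19 FPKM in pBKSM and pOKSM, and Ltbp1, which holds latent TGF-beta in the matrix, was 1.25 and 6.17. The Id genes are BMP targets, and they split: Id1 was 107 and 27.8 FPKM and Id3 is given above, while Id4 was 0.984 in pBKSM, 16.6 in pOKSM, 0.492 in cNSC, and 18.8 and 20.1 in the clones. In the FGF, EGF and PDGF list 7 of 21 kept genes were higher and 2 lower, with a median of 0.59. The ligand genes Areg (9.82 and 0.930 FPKM), Fgf1 (19.4 and 6.01) and Pdgfa (9.48 and 2.63) were higher, whereas the receptor gene Pdgfra was lower. In the Hedgehog pathway 2 of 8 kept genes were lower and 0 higher. These were the effectors Gli2 (1.26 and 11.5 FPKM) and Gli3 (4.17 and 14.1). In the retinoic acid list the synthesis gene Aldh1a1 was higher (5.18 and 0.385 FPKM) and the carrier gene Crabp2 lower (0.830 and 5.03), of 7 kept genes.

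Genes of DNA replication and mitosis lay close together, while some p53 targets and kinase inhibitors differed. Over all kept genes 6.47% were higher in pBKSM and 5.1% lower. None of 32 DNA replication and mitosis genes was 2-fold apart, and their median was 0.07. The farthest were the cyclin genes Ccnd2 (49.8 and 99.6 FPKM in pBKSM and pOKSM) and Ccnd1 (421 and 239). Of 19 kept genes of the p53 list 6 were higher, 2 lower and 11 within 2-fold, with a median of 0.62. The 2 lower ones were Trp53, the gene of p53 itself, at 78.0 and 184 FPKM in pBKSM and pOKSM, and Bbc3, a cell death gene named after its value was seen, at 12.8 and 30.5. Cdkn1a, which encodes the kinase inhibitor p21, was 274 FPKM in pBKSM, 65.3 in pOKSM, 80.05 in MEF, 178 in cNSC, 275 in DTA, and 33.0 and 9.55 in the clones. Of 6 kept kinase inhibitor genes 2 were higher, 1 lower and 3 within 2-fold, with a median of 0.52. Cdkn2a, the locus of p16 and p19Arf, was 97.5 FPKM in pBKSM, 295 in pOKSM, 82.4 in MEF, 20.9 in cNSC, 53.6 in DTA, and 453 and 378 in the clones. The p53 targets Phlda3 (70.8 and 25.6 FPKM) and Pmaip1 (12.2 and 4.61) were higher in pBKSM beside Eda2r, and so was the inhibitor gene Cdkn2c (47.9 and 14.1). Of the kinase inhibitors, p21 was thus high where Cdkn2a was low in these 2 lines.

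Immediate early genes respond within a short time to growth factors and to handling of cells. They were higher in pBKSM for 10 of 18 kept members and lower for 0, with a median of 1.15. Over all kept genes 6.47% were higher and 5.1% lower. The list was drawn up after the data were seen. Egr1 (chromosome 18, 34861207 to 34864956) was 213 FPKM in pBKSM, 20.3 in pOKSM, 20.4 in MEF, 96.4 in cNSC, 113 in DTA, and 66.9 and 26.9 in the clones. Its value in pBKSM was the highest of the 7, and the clones differed from each other as well. Fos was 71.7 and 17.1 FPKM in pBKSM and pOKSM, 138 in DTA, and 44.1 and 24.98 in the clones. Ier2 (81.7 and 18.6 FPKM), Egr3 (10.3 and 0.638) and Atf3 (11.4 and 1.67) were higher in pBKSM too. The time of harvest after a change of medium is not given in the sources used here, and its part was not tested.

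Of the metabolic lists, those of cholesterol and the respiratory chain held few genes 2-fold apart. Glycolysis genes had a median of 0.61, with 2 of 19 kept genes higher and 2 lower. Pgk1, on the X chromosome, was 332 and 126 FPKM in pBKSM and pOKSM, while Pfkp, a phosphofructokinase gene, was 0.312 and 7.63 and the glucose transporter gene Slc2a3 was 2.97 and 7.32. Cholesterol genes had a median of 0.41, and 1 of 22 kept genes was 2-fold apart, Hmgcs1, an early enzyme of the pathway (286 and 133 FPKM). Respiratory chain genes had a median of 0.32 and 1 of 26 kept genes 2-fold apart each way, with Ndufa1, on the X chromosome, at 169 and 79.5 FPKM and Cox6b2, a testis form of a cytochrome oxidase subunit, at 0.556 and 19.2. Of DNA methylation and Polycomb genes, 2 of 22 kept were lower and 0 higher, namely the Polycomb subunit genes Pcgf2 (3.00 and 19.2 FPKM) and Cbx2 (10.5 and 22.2). Over all kept genes 11.6% were 2-fold apart. The shares of the cholesterol (1 of 22), respiratory chain (2 of 26) and DNA methylation and Polycomb lists (2 of 22) lay under that. The share of the glycolysis list lay above it.

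Imprinted genes, which are read from 1 parental copy, differed at a few paternally expressed members. Of 14 kept paternal genes 2 were higher in pBKSM and 3 lower, and 0 of 7 kept maternal genes were 2-fold apart. Over all kept genes 11.6% were 2-fold apart, and 7 genes are too few to set the maternal list apart from that. Plagl1, a zinc finger gene, was 0.777 FPKM in pBKSM, 12.8 in pOKSM, 4.86 in cNSC, and 13.6 and 15.4 in the clones. Nnat, neuronatin, was 8.71 FPKM in pBKSM, 55.9 in pOKSM, 163 in cNSC, 0.0674 and 0 in the clones and 0 in MEF and DTA. Inpp5f was 11.3 and 27.6 FPKM in pBKSM and pOKSM, Nap1l5 was 62.5 and 25.98, and Peg3 was 15.5 and 6.85. For Nnat the 2 polycistronic lines were thus the only induced lines with a value above 1 FPKM.

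**Figure D3:**
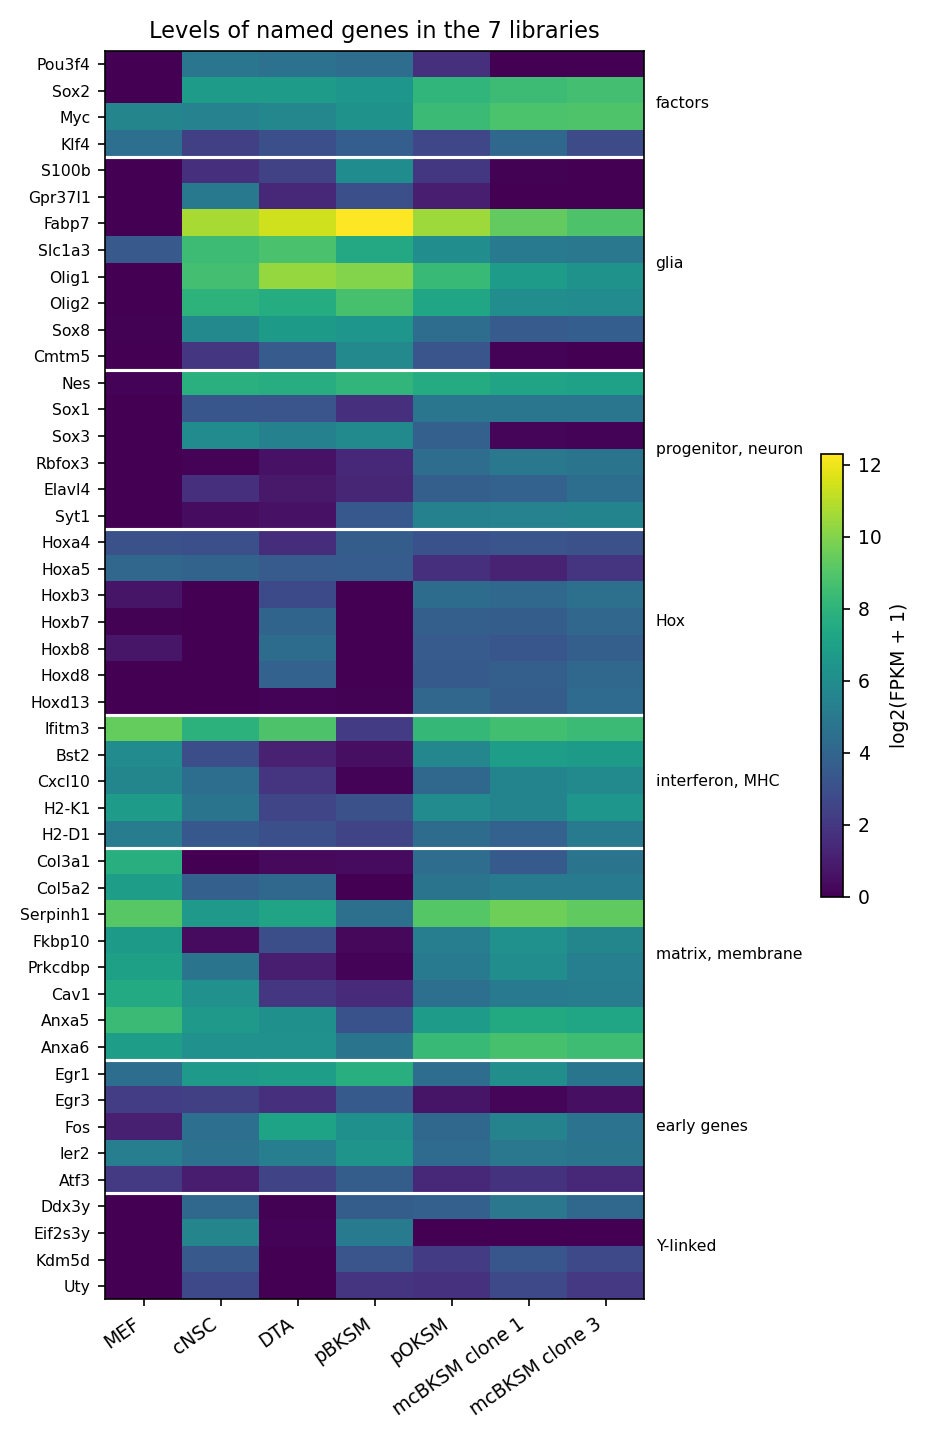
Rows are genes of the groups described, columns the 7 libraries, and colour the level as log2(FPKM + 1) from 0 (dark) to above 12 (yellow). In pBKSM the HoxB and HoxD rows and Cxcl10 are dark and glial rows bright; pOKSM resembles the clones in most matrix, interferon and Hox rows.

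The genes with the farthest differences were looked at in all libraries. In pOKSM 126 genes had at least 5 FPKM while pBKSM had under 1 FPKM, and 35 of them were listed at 0 in pBKSM, of which 7 are microRNA or small nucleolar RNA genes. Of the 126, 112 reached 5 FPKM in clone 1 and 119 in clone 3, against 56 in MEF, 31 in cNSC and 20 in DTA. The same was not counted over all genes with 5 FPKM in pOKSM, so these counts only describe the 126. Just 7 reached 5 FPKM in all 5 other libraries, so that pBKSM alone was under 1 FPKM for them: Lxn, Churc1, Gng10, Col5a2, Cpped1, Ltbr and Cav2. Cpped1 and Ltbr were named after their values were seen. Lxn, a carboxypeptidase inhibitor gene (chromosome 3, 67457999 to 67463907), was 0.0937 FPKM in pBKSM and 84.3 in pOKSM, 38.4 in MEF, 128 in cNSC, 26.5 in DTA, and 75.6 and 76.8 in the clones. Gng10, a G protein subunit gene (chromosome 4, 59035156 to 59041899), was 0.0909 FPKM in pBKSM, 42.7 in pOKSM, 127 in MEF, 52.3 in cNSC, 35.3 in DTA, and 46.2 and 44.5 in the clones. Both genes were present in each other library and at the floor in pBKSM.

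Others of the 126 were shared by pOKSM and the clones but low in the rest. Moxd1, a monooxygenase-like gene (chromosome 10, 24223517 to 24302783), stood at 89.1 FPKM in pOKSM, 89.3 in clone 1 and 98.9 in clone 3, and at or under 0.188 in pBKSM, MEF, cNSC and DTA. Lck, a Src-family kinase gene known from T cells, stood at 49.0 FPKM in pOKSM, 69.4 in clone 1 and 68.3 in clone 3, and at or under 0.460 in the 4 others. Among the largest differences outside the 126, Tagln2, an actin-binding protein gene, was 9.40 FPKM in pBKSM and 312 in pOKSM. Rgs16, a G protein regulator gene, was 1.31 and 75.1 FPKM, and Rcan2, a calcineurin regulator gene, was 1.07 and 61.4. Within the 126, Crip1 (45.4 FPKM in pOKSM), Plp2 (25.4) and the limb factor gene Shox2 (23.3) were listed at 0 in pBKSM, and Isyna1, the inositol synthase gene, was 0.413 and 33.2.

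The reverse group was smaller. In pBKSM 25 genes had at least 5 FPKM while pOKSM had under 1 FPKM, 8 of them listed at 0 in pOKSM. Of these 8, 6 are microRNA or small nucleolar RNA genes, which leaves Eif2s3y and Tex13. Of the 25, 9 reached 5 FPKM in cNSC, 4 in DTA, 3 in MEF and 3 in each clone. These counts too have none over all genes beside them. Eif2s3y, a Y-linked translation factor gene (chromosome Y, 1010562 to 1049134), was 31.2 FPKM in pBKSM, 48.2 in cNSC, 0.0730 in DTA and 0 in pOKSM, MEF and both clones. Ddx3y, Kdm5d and Uty were above the floor in pOKSM and the clones, so Eif2s3y was the sole gene of the 4 listed at 0 there; Kdm5d was 8.32 FPKM in pBKSM and 3.52 in pOKSM. Tex13 was 32.3 FPKM in pBKSM and listed at 0 in each of the 6 other libraries. Among further large differences, Pdzrn4 was 14.0 and 0.937 FPKM in pBKSM and pOKSM, Timp4, a metalloproteinase inhibitor gene, was 28.1 and 3.13, and Adm, the adrenomedullin gene, was 9.12 and 0.592. Scrg1 (29.1 and 3.17 FPKM), Plekhb1 (41.2 and 4.88), the potassium channel gene Kcnn2 (11.5 and 1.06) and the carbonic anhydrase gene Car2 (58.1 and 9.09) were higher in pBKSM as well. Scrg1, Plekhb1, Timp4 and Car2 were also present in cNSC, at 33.3, 153, 32.8 and 134 FPKM.

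The place of the other libraries was counted over the 1074 genes. A library was called nearer to pBKSM when its log2(FPKM + 1) lay closer to that of pBKSM than to that of pOKSM. Clone 1 lay nearer to pBKSM for 3.49% of the 601 genes higher in pBKSM and 3.38% of the 473 lower ones, against 21.9% of all kept genes. Clone 3 did so for 0.998% and 1.90%, against 15.6%. The clones thus lay on the side of pOKSM for nearly all genes that part the 2 lines. Their label names the factors of pBKSM, and Pou3f4 was listed at 0 in both, so the B of that label is not checked. DTA lay nearer to pBKSM for 63.6% of the higher and 72.1% of the lower genes (58.3% of all kept), and cNSC for 53.6% and 61.9% (54.8%). MEF lay nearer to pBKSM for 22.0% of the higher and 49.7% of the lower genes (44.8%). The strain of cNSC differed from that of the lines and that of DTA is not known, so these shares cannot be told apart from strain.

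**Figure D4:**
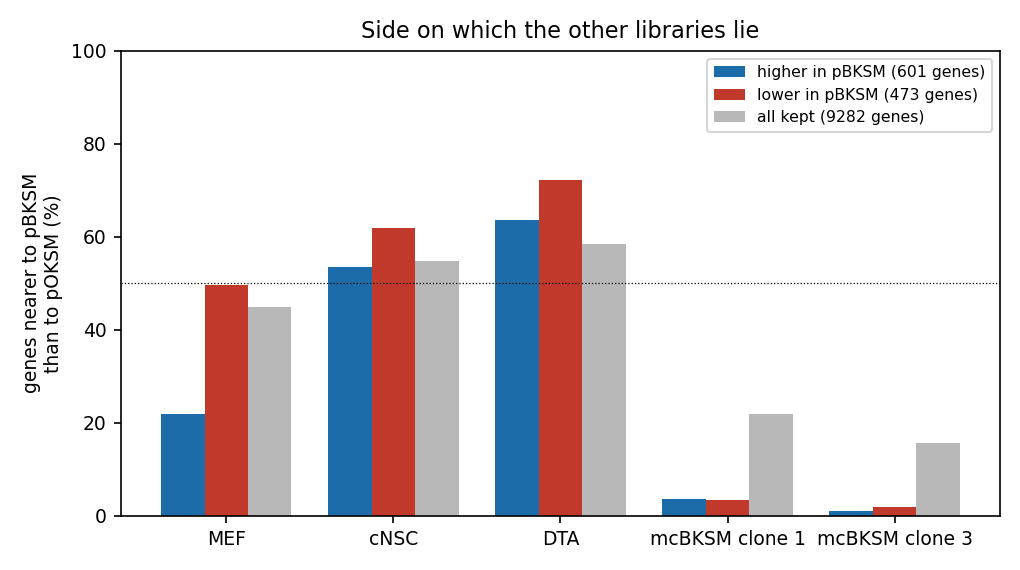
Bars give the percentage of genes for which each of the 5 other libraries lay nearer to pBKSM than to pOKSM on the log2(FPKM + 1) scale, for genes higher in pBKSM (blue), lower (red) and all kept genes (grey), and the dotted line marks 50. The bars of both mcBKSM clones for the genes that differ stand under 4%, and those of DTA above 60%.

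By position, the share of genes higher in pBKSM was highest, of the autosomes and X, on the X chromosome and next on chromosome 1. RefSeq positions (GRCm38.p6, the same assembly as mm10) were found for 8863 of the 9282 kept genes. On the X chromosome 68 of 282 kept genes were higher in pBKSM (24.1%) and 11 lower (3.90%), the median difference was 0.62, and 252 genes (89.4%) lay above 0. On the autosomes 506 of 8578 were higher (5.90%) and 446 lower (5.20%), with a median of 0.02. Chromosome 1 stood next (Y, with 3 kept genes, is given by gene), with 59 of 518 higher (11.4%), 22 lower, a median of 0.38 and 413 genes (79.7%) above 0. Chromosome 6 had a median of 0.29 and chromosome 16 of 0.22, and the lowest medians were -0.12 on chromosomes 3 and 10. The shift on the X chromosome was thus small per gene and wide in the number of genes.

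Each library was then set against cNSC, chromosome by chromosome. On the X chromosome the median difference from cNSC was 0.08 in pBKSM, -0.51 in pOKSM, -0.80 in clone 1, -0.78 in clone 3 and -0.02 in DTA. In MEF, the fibroblast library, it was -0.40. On chromosome 1 it was 0.31 in pBKSM and -0.08 in pOKSM, and in the clones -0.04 each. For the X chromosome, then, pOKSM, the clones and MEF lay under cNSC, and for chromosome 1 pBKSM lay above it. On chromosome 6 the values were 0.08 in pBKSM, -0.21 in pOKSM, and -0.48 and -0.34 in the clones. Xist, the RNA of the silent X chromosome, was 0.00968 FPKM in pBKSM and 0.00895 in pOKSM. Genes that are known to escape silencing lay within 2-fold, among them Kdm5c (17.4 and 10.6 FPKM), Kdm6a (7.36 and 6.00), Eif2s3x (20.4 and 16.3), Ddx3x (146 and 149) and Mid1 (4.93 and 8.61). The number of chromosomes in the cells was not measured, and its part in these shifts was not tested.

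In windows of 25 neighbouring kept genes, the highest median was 0.89 on the X chromosome, 75109733 to 98949021 (Mpp1 to Yipf6), where 10 genes were 2-fold higher in pBKSM, 0 lower, and 24 above 0. The highest autosomal window reached 0.74 on chromosome 16, 90385284 to 94371015 (Hunk to Pigp), with 7 genes higher and 0 lower. Olig1 and Olig2 lie inside that window. The lowest window was -0.48 on chromosome 5, 3803156 to 21701622 (Krit1 to Napepld). Leaving out all genes on X and Y, 531 genes were higher in pBKSM and 462 lower.

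**Figure D5:**
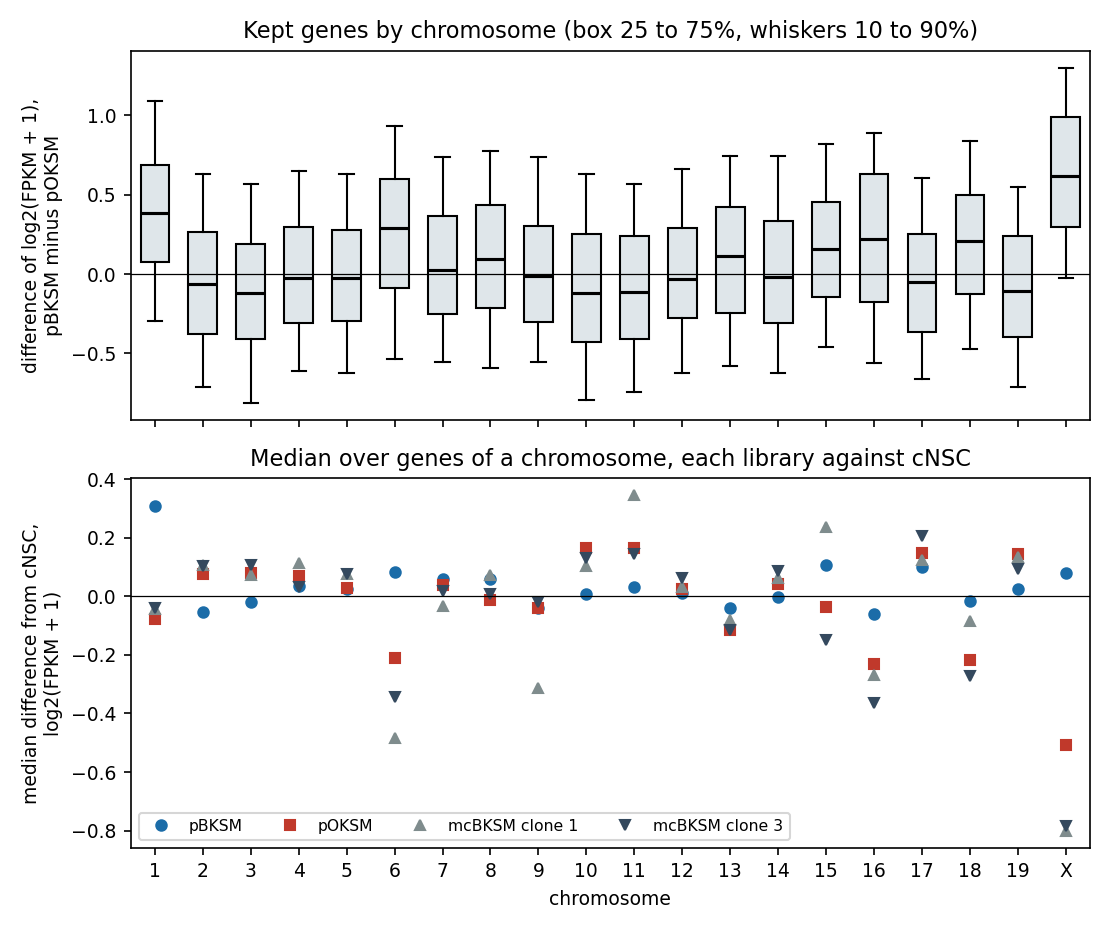
Top, differences of log2(FPKM + 1), pBKSM minus pOKSM, of kept genes on each autosome and X (Y, with 3 kept genes, is not drawn; line the median, box 25 to 75%, whiskers 10 to 90%); bottom, the median difference of each line from cNSC. X lies highest of the drawn chromosomes at the top (median 0.62), and at the bottom pOKSM (-0.51) and the clones lie under pBKSM (0.08) there.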

How the data were processed

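RNA sequencing of 7 mouse libraries, each of RNA pooled over 2 to 3 biological replicates per the labels' protocols, was deposited as 1 table of FPKM. The FPKM values deposited by the authors came, per the submitters' processing notes, from Cuffnorm and Cufflinks (2.2.1), with STAR (2.5.2b) and R (3.3.2) also named and mm10 as the build. Roles, settings and annotation are not stated. Scaling between libraries hides a difference in total RNA per cell. All 7 columns matched a sample title.

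From the deposited values, differences of log2(FPKM + 1) were computed with pandas 2.3.3 and numpy 2.4.6 for the kept genes (5 FPKM or more on the higher side). Called means 2-fold or more apart, and no test was possible with 1 library a side. Depth came from the steps between low values of 2143 single-transcript genes and is approximate. Of the 40 gene lists and 4 added after the data were seen, 2 members were not found under their symbols. Lists, members and rules were chosen with earlier results of these data known. Named genes were the factor, Y-linked and X-inactivation genes, up to 5 per list by size among those 2-fold apart (up to 2 where none was), the 20 largest differences each way, and those nearest 2-fold; the last 2 groups skipped predicted genes, microRNAs, Riken clones, snoRNAs and ribosomal proteins. Exceptions are named as such. Results on items withheld for evaluation are not reported here. Counting was checked on simulated tables. Alternatives were other pseudocounts, filters and scalings, and leaving out gene classes or the sex chromosomes.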

Additional observations from a re-analysis of the deposited data

How the results depend on the processing

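Depth, 1 pooled library a side and pseudocount set the limits of these results. No paired analysis was possible because pBKSM and pOKSM have 1 library each and no shared replicate number in the labels, and for the same reason no replicate could be left out. No named gene 2-fold or more apart, and no list median of at least that size, changed sign under the alternatives run. For a single gene, however, a filter or another pseudocount cannot change the sign. The size was less stable, and a shift of more than 0.35, the SD of the clone differences, was called moved. With a pseudocount of 5 the difference moved for 109 of 179 named genes, and with 0.1 for 66. With no filter 15 list medians moved and 23 did not. Of list medians under 2-fold, that of Notch (-0.06) was 0.74 and that of Hedgehog (-0.02) was 0.23 with a filter of 20 FPKM. That of dorsoventral genes (-0.39) was 0.49 with a filter of 1 FPKM. Genes 2-fold apart (1074) were 641 with a pseudocount of 5 and 511 with a filter of 20 FPKM. Those higher in pBKSM (601) were 345 and 346, and those lower (473) were 296 and 165, while 758 were lower with a filter of 1 FPKM and with none. Lower genes made up 44.0% of calls, 50.5% with a filter of 1 FPKM or none, and 32.3% with one of 20 FPKM. Genes 4-fold apart (284) were 86 with a pseudocount of 5 and 126 with 20 FPKM. The clones' 114 genes became 57 with a pseudocount of 5, 197 with 1 FPKM or no filter and 37 with 20 FPKM. The share of genes for which MEF lay nearer to pBKSM (34.2%) was 37.6% with 1 FPKM or no filter and 28.2% with 20 FPKM, and that of clone 3 (1.40%) was 2.66% and 0.783%. With no filter the medians of chromosome 1 (0.38) and of the X chromosome (0.62) were 0, since unexpressed genes enter. Quantile normalization gave 546 higher and 458 lower, and centring on the median 550 and 503.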
